A study of Danio rerio with 21 samples.

Results

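Expression of 10 genes that encode cargo receptors for export from the endoplasmic reticulum (ER) was examined in livers of zebrafish larvae at 7 days post fertilization (dpf). The genes were *tmed2*, *tmed3*, *tmed4*, *tmed5*, *tmed9* and *tmed10* of the p24 family, the lectin genes *lman1* and *lman2*, *mcfd2*, whose product partners Lman1, and *surf4*. They were chosen by name, for products that select cargo, with earlier results of these data known. Each zebrafish symbol was matched to 1 Ensembl gene, so that the genes make up 10 of the 32520 gene identifiers in the count tables, and 10 of 10 passed the filter on low counts.

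Proteins that leave the ER are packed into vesicles coated by COPII, a coat of which Sec31a is an outer component. Many soluble proteins cannot touch the coat themselves, because the ER membrane lies between them, and membrane-spanning cargo receptors bind them on the inside and the coat on the outside. Proteins of the p24 family travel between the ER and the Golgi in both COPII and COPI vesicles, form complexes with members of the other subfamilies and are known for carrying proteins anchored to the membrane by a glycolipid. In humans LMAN1 with its partner MCFD2 carries coagulation factors V and VIII, and loss of either gene causes a combined deficiency of these liver-associated clotting factors. Mammalian SURF4 carries lipoproteins, among other cargo, out of the ER in hepatocytes, the secretory cells that form most of the liver.

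The study asked how livers with impaired COPII transport respond and which branches of the unfolded protein response, the cell's reaction to misfolded protein in the ER, take part. Low-input RNA-seq counts were available for 7 genotypes on the AB background, each with 3 libraries from livers dissected at 7 dpf and dissociated with trypsin. The number of larvae behind a library is not given in the sources used here. The wild type (WT) carried no mutation. The genotype *sec31anju221* was homozygous for a gene trap allele with a transposon in an intron of *sec31a*, which leaves a fusion protein without its C-terminus and is described as hypomorphic. In 5 further genotypes, CRISPR/Cas9 knockout alleles of transcription factor genes were added to *sec31anju221*, so that all of them also carried the *sec31a* allele: *xbp1-/-;sec31anju221*, *atf6-/-;sec31anju221*, *srebf1-/-;sec31anju221*, *srebf2-/-;sec31anju221* and *atf4a-/-;atf4b-/-;sec31anju221*, called double mutants here, the last of them the libraries labelled *atf4a/b*. No line with a transcription factor knockout alone was analysed here, and every allele was present in the whole animal, not in the liver only.

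Library totals were 9608400 to 23095746 counts. They were 9608400 to 11666806 in the *xbp1* and *atf6* double mutants and the libraries labelled *atf4a/b*, and 18918025 to 23095746 in the other genotypes. Libraries of the same genotype agreed almost to within sampling noise. The variance of a gene's counts was estimated, from the median over genes, at 1.79 to 1.87 times their mean. Single reads give a ratio of 1 and counting both reads of each pair gives 2. Although the libraries are labelled as replicates, they were therefore summed and counted as 1 sample per genotype (n = 1), and no p-value is given. The spread over libraries reflects the precision of sequencing. Levels are CPM, a gene's counts relative to the total of its library, scaled by TMM, the trimmed mean of M-values, whose factors ran from 0.461 in WT to 2.21 in the *atf6* double mutant. The genotypes with the lower totals had factors of 1.66 to 2.21 and the others 0.461 to 0.749. Between these sets of genotypes, depth and scaling factor cannot be told apart from genotype. Fold changes are on the log2 scale with a prior count of 2, and a gene was called higher or lower when it differed by more than 2-fold. Standard errors (SE) of log2 fold changes cover counting error between the libraries and nothing between animals. No gene lengths were used, so levels of different genes are not ranked against each other.

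The disrupted genes were checked first. The gene *sec31a* was at 20.5 CPM in WT and 2.68 CPM in *sec31anju221*, with 2.08 to 5.33 CPM in the double mutants. Against *sec31anju221*, *xbp1* went from 105 to 0.366 CPM and *atf6* from 333 to 4.13 CPM in the respective double mutants. In theirs, *srebf1* went from 1.6 to 0.468 CPM and *srebf2* from 4.52 to 1.08 CPM. The level of *srebf1* was as low in the *srebf2* double mutant, at 0.438 CPM, so it does not mark the *srebf1* knockout. In the libraries labelled as *atf4a/b* double mutant, *atf4a* was at 11.96 CPM against 6.51 CPM and *atf4b* at 125 CPM against 89.8 CPM. The counts thus do not show the loss of these genes there, and the libraries are called by their label throughout. The paper, by contrast, reports from qPCR that mRNA of each gene was missing in embryos of its knockout. Why the liver counts differ from this was not tested. Hepatocyte markers, 10 genes, took 30.2% of the reads in WT, 12.9% in *sec31anju221* and 10.4% to 18.3% in the double mutants. Most of this was *apoa2*, with 611200 of their 655100 CPM in WT and 154000 of 171700 CPM in *sec31anju221*. Among the most abundant markers, *apoa2* was below WT in the *srebf2* double mutant, at 246900 CPM. There *tfa* and *fabp10a* were above WT, at 29020 against 11840 CPM and 15500 against 9143 CPM. Exocrine pancreas markers, 9 identifiers, took 0.0960% of the reads in WT, 0.00708% in *sec31anju221*, 0.166% in the *atf6* and 0.0468% in the *srebf1* double mutant, and 0.00222% to 0.00427% in the other double mutants, with 0 of 9 at a count of 0 in any genotype. Summed TMM-scaled levels over the 7 genotypes were 99.4 to 3523 CPM for 5 intestine markers, 8.49 to 175 CPM for 4 erythrocyte markers, 764 to 4134 CPM for 3 biliary markers, 28.6 to 81.2 CPM for 5 endothelial and stellate markers and 3.29 to 26.1 CPM for 2 macrophage markers. The intestine sum was 1915 CPM in WT, 3523 CPM in *sec31anju221*, 3357 CPM in the *srebf1* and 963 CPM in the *srebf2* double mutant. It was 586 CPM in the *xbp1* and 99.4 CPM in the *atf6* double mutant and 152 CPM in the libraries labelled *atf4a/b*. Most of it in *sec31anju221* was *fabp2*, at 3317 CPM. In whole liver, fewer cells of a type and less RNA per cell cannot be told apart. The part of all these markers in the results for the cargo receptors was not tested.

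Between *sec31anju221* and WT, 5 of the 10 cargo receptor genes were higher by more than 2-fold and 0 were lower. Over all 30685 genes tested, 18.1% were higher and 13.3% lower by this rule. Of the 5245 genes that averaged 10 CPM or more over the genotypes, called the abundant genes, 14.9% were higher and 19.5% lower. The genes called higher were *mcfd2*, *tmed4*, *lman1*, *tmed2* and *tmed10*, from both the p24 family and the Lman1 pair. The median log2 difference of the 10 genes was 0.87, beside a median of 0.13 over all genes tested and -0.16 over the abundant genes. The 10 genes together took 1607 CPM in WT and 3220 CPM in *sec31anju221*, which was 996 and 2208 CPM with factors from the abundant genes and 741 and 2413 CPM without a scaling factor.

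**Figure D1:**
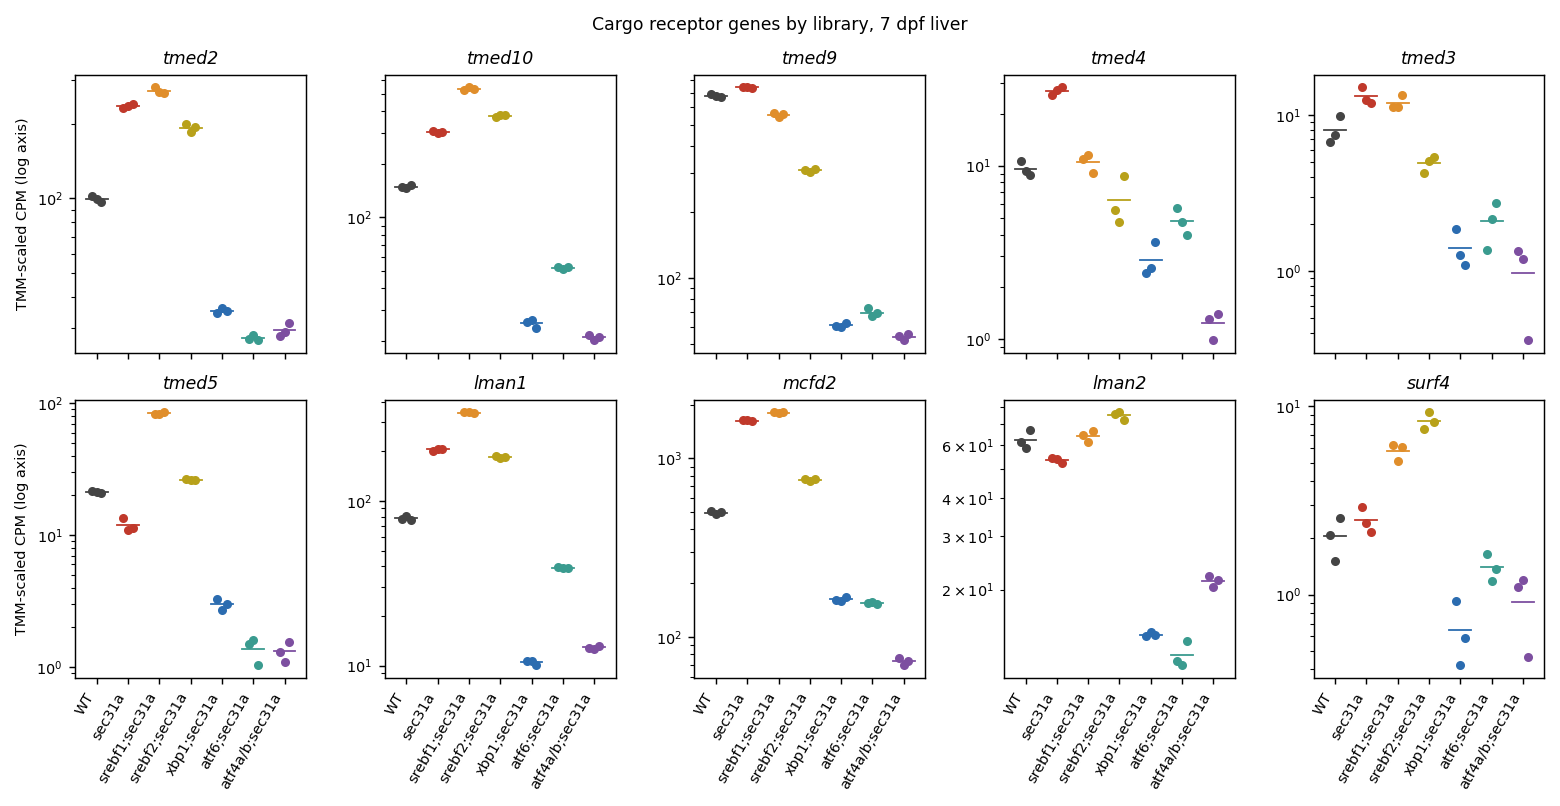
TMM-scaled level of each cargo receptor gene (CPM, log axis) in every library of the 7 genotypes; points are the 3 libraries, bars the level of the summed libraries, and sec31a on the axis stands for sec31anju221. The libraries of a genotype lie close together except for the weakly counted *tmed3*, *tmed4*, *tmed5* and *surf4*. By their bars the double mutants of *xbp1* and *atf6* and the libraries labelled *atf4a/b* have the 3 lowest levels of every gene. This order belongs to TMM over all genes tested and fails for some genes with other factors. With factors from the abundant genes, *tmed4* was at 10.15 CPM in the *atf6* double mutant and 5.95 CPM in WT.

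The p24 genes were taken by subfamily. Tmed2, the only beta protein among the genes chosen, and Tmed10, the delta protein, are core partners of p24 complexes. The level of *tmed2* was 102, 99.0 and 97.0 CPM in the WT libraries and 232, 235 and 239 CPM in those of *sec31anju221*. The log2 difference was 1.24 (SE 0.04). For *tmed10*, WT had 149, 147 and 152 CPM and *sec31anju221* had 308, 299 and 305 CPM. The difference of 1.03 (SE 0.03) lay just past the 2-fold limit. With RLE size factors it was 0.92, with factors from the abundant genes 1.17 and without a scaling factor 1.73. Without replicate 1 or 3 of *sec31anju221*, with TMM factors recomputed, it was 0.98 or 0.99. Core p24 genes of both kinds were thus higher in *sec31anju221*. For *tmed10*, whether the difference passed 2-fold depended on the factors.

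In the *srebf1* double mutant *tmed2* was at 280, 267 and 266 CPM and *tmed10* at 526, 546 and 531 CPM, the highest level of each over the 7 genotypes. Against *sec31anju221* this was a log2 difference of 0.20 (SE 0.03) for *tmed2* and 0.81 (SE 0.02) for *tmed10*, neither past 2-fold. The *srebf2* double mutant had 198, 186 and 193 CPM of *tmed2* and 368, 379 and 380 CPM of *tmed10*. Here *tmed2* was on the low side of *sec31anju221* and *tmed10* on the high side with TMM, at log2 differences of -0.29 and 0.30, of which that of *tmed10* turned to -0.22 without a scaling factor.

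Both core genes were far lower in the remaining double mutants. The *xbp1* double mutant had 34.6, 36.4 and 35.1 CPM of *tmed2* and 25.7, 26.2 and 23.9 CPM of *tmed10*. In the *atf6* double mutant the levels were 27.2, 28.3 and 27.0 CPM for *tmed2* and 52.3, 51.1 and 52.2 CPM for *tmed10*. The libraries labelled *atf4a/b* had 27.9, 29.0 and 31.5 CPM of *tmed2* and 21.8, 20.3 and 21.2 CPM of *tmed10*. With TMM all of these lay below the WT libraries as well, but without a scaling factor *tmed2* was above the 45.8 CPM of WT in all 3 genotypes, at 77.5, 60.9 and 48.8 CPM, and *tmed10* was above the 68.7 CPM of WT in the *atf6* double mutant, at 115 CPM. Reads of *tmed2* per read of *tmed10*, which no scaling factor can change, numbered 0.666 in WT, 0.774 in *sec31anju221*, 0.507 to 0.530 in the *srebf1*, *srebf2* and *atf6* double mutants, and 1.40 in both the *xbp1* double mutant and the libraries labelled *atf4a/b*. In the last of these it ran from 1.28 to 1.49 over the libraries.

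The alpha proteins Tmed9 and Tmed4 behaved differently from each other. Tmed9 is known in human cells for holding misfolded membrane proteins in the early secretory pathway. Its gene *tmed9* had 689, 677 and 672 CPM in WT and 742, 742 and 739 CPM in *sec31anju221*. The log2 difference was only 0.13 (SE 0.02), and it ran from 0.02 with RLE size factors to 0.83 without a scaling factor. The gene *tmed4* had 10.6, 9.31 and 8.88 CPM in WT and 25.6, 27.4 and 28.4 CPM in *sec31anju221*, a log2 difference of 1.49 (SE 0.13). Of the alpha genes only *tmed4* was thus called higher in *sec31anju221*.

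In each of the 5 double mutants, both alpha genes were below *sec31anju221*. For *tmed9* the level was 563, 542 and 563 CPM in the *srebf1* and 311, 305 and 314 CPM in the *srebf2* double mutant. With TMM both were also below WT, and without a scaling factor the *srebf1* double mutant was above it, at 384 CPM against 313 CPM. It was 60.7, 59.7 and 62.7 CPM in the *xbp1* double mutant, 72.9, 67.1 and 69.1 CPM in the *atf6* double mutant and 54.6, 52.3 and 55.6 CPM in the libraries labelled *atf4a/b*. The reads of *tmed9* per read of *tmed10* went from 4.56 in WT to 2.44 in *sec31anju221* and to 0.826 in the *srebf2* double mutant. The gene *tmed4* was at 10.5 CPM in the *srebf1* double mutant, where its libraries overlapped those of WT, and at 6.34 CPM in the *srebf2* double mutant. Its level was 2.87 CPM in the *xbp1* and 4.79 CPM in the *atf6* double mutant and 1.23 CPM in the libraries labelled *atf4a/b*, the last from 71 counts in the 3 libraries together.

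The gamma genes *tmed3* and *tmed5* moved apart in *sec31anju221*. The level of *tmed3* was 6.67, 7.43 and 9.82 CPM in WT and 15.1, 12.4 and 11.9 CPM in *sec31anju221*. The log2 difference of 0.72 (SE 0.15) was not past 2-fold. For *tmed5* the WT libraries had 21.8, 21.2 and 20.96 CPM and those of *sec31anju221* 13.6, 11.01 and 11.3 CPM, a log2 difference of -0.83 (SE 0.11) that also missed 2-fold and was -0.13 without a scaling factor. Among the p24 genes chosen, *tmed5* alone had a lower level in *sec31anju221* than in WT. Other p24 identifiers, most with few reads, went both ways. Lower were *tmed6* at -1.12 and an identifier named TMED1 at -1.11. The level of *tmed6* was only 0.188 CPM in WT and 0.0649 CPM in *sec31anju221*, too low to rest a direction on. Higher were *tmed7* at 1.31, *tmed8* at 1.24 and another identifier named TMED1 at 0.48.

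The level of *tmed5* also set the *srebf1* double mutant apart. It was 83.1, 83.3 and 85.5 CPM there, above every library of the other genotypes. The log2 difference from *sec31anju221* was 2.81 (SE 0.09), a 7.00-fold level, and 98.7% of the abundant genes had a smaller difference. In the *srebf2* double mutant *tmed5* was at 26.7, 26.0 and 26.3 CPM, which was 1.14 above *sec31anju221* (SE 0.11) with TMM and 0.84, short of 2-fold, with TMM factors taken from the abundant genes alone. Levels of 2.998 CPM in the *xbp1* double mutant, 1.38 CPM in the *atf6* double mutant and 1.31 CPM in the libraries labelled *atf4a/b* made *tmed5* the gene with the widest span, 63.9-fold between its highest and lowest genotype. The other gamma gene, *tmed3*, had 11.95 CPM in the *srebf1* and 4.89 CPM in the *srebf2* double mutant and 0.968 to 2.08 CPM in the others.

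Lman1 is a lectin that binds mannose-rich glycoproteins, and Mcfd2 is a small calcium-binding protein that acts with it. Both genes were called higher in *sec31anju221*. The level of *lman1* was 78.0, 81.5 and 76.9 CPM in WT and 202, 208 and 207 CPM in *sec31anju221*, a log2 difference of 1.38 (SE 0.04). For *mcfd2* it was 506, 487 and 498 CPM in WT and 1635, 1634 and 1610 CPM in *sec31anju221*. With a log2 difference of 1.71 (SE 0.02), *mcfd2* had the largest difference of the 10 genes, past that of 93.8% of the abundant genes.

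In the *srebf1* double mutant *lman1* was at 345, 344 and 340 CPM and *mcfd2* at 1809, 1785 and 1813 CPM, the highest level of each gene. The *srebf2* double mutant had 188, 183 and 184 CPM of *lman1*, close to *sec31anju221* at a log2 difference of -0.15 that turned to 0.12 with RLE size factors. Its level of *mcfd2*, 768, 745 and 767 CPM, was lower than in *sec31anju221* by a log2 difference of -1.10 (SE 0.01), which was -0.83 with RLE size factors. Here the receptor and its partner were uneven: 4.11 reads of *mcfd2* were counted per read of *lman1*, against 6.31 in WT and 7.91 in *sec31anju221*.

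The pair was uneven in the opposite direction in the *xbp1* double mutant. There *lman1* was at 10.7, 10.7 and 10.1 CPM and *mcfd2* at 162, 159 and 168 CPM. The log2 differences from *sec31anju221* were -4.29 (SE 0.07) and -3.32 (SE 0.02), and the ratio of reads was 15.5 *mcfd2* to 1 *lman1*, with 14.9 to 16.7 in the libraries. In the *atf6* double mutant *lman1* was at 39.6, 39.2 and 39.1 CPM and *mcfd2* at 155, 156 and 154 CPM, a ratio of 3.94 with 3.92 to 3.99 in the libraries. Thus the double mutants of *xbp1* and *atf6* differed far more in *lman1* than in *mcfd2*. The libraries labelled *atf4a/b* had 12.9, 12.7 and 13.1 CPM of *lman1* and 76.8, 69.7 and 73.3 CPM of *mcfd2*, with a ratio of 5.67 that lay between those of the *srebf1* double mutant and WT.

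The gene of the related lectin *lman2* varied least. It was at 61.4, 58.6 and 67.3 CPM in WT and 54.2, 53.7 and 52.3 CPM in *sec31anju221*. The log2 difference of -0.23 (SE 0.06) was not past 2-fold and turned to 0.47 without a scaling factor. The *srebf1* double mutant had 64.5, 61.2 and 66.4 CPM, overlapping WT, and the *srebf2* double mutant had 75.9, 76.8 and 72.3 CPM. With TMM, levels were 14.1, 14.4 and 14.1 CPM in the *xbp1* double mutant, 11.6, 11.3 and 13.6 CPM in the *atf6* double mutant and 22.2, 20.5 and 21.5 CPM in the libraries labelled *atf4a/b*. Without a scaling factor *lman2* was at 31.15, 26.9 and 35.4 CPM in these genotypes, beside 28.8 CPM in WT. Their position below WT thus rests on the scaling. The span of *lman2* over the genotypes was 6.17-fold with TMM, against 9.86-fold to 63.9-fold for the other genes. In RefSeq's zebrafish genes *lman2* and *tmed9* are next to each other, but the reads of *tmed9* per read of *lman2* ran from 13.9 in *sec31anju221* to 2.53 in the libraries labelled *atf4a/b*, so these neighbours did not keep step.

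Surf4, a receptor that spans the membrane several times, was represented by few reads, 46 to 248 per genotype. The level of *surf4* was 2.07, 1.504 and 2.55 CPM in WT and 2.92, 2.40 and 2.14 CPM in *sec31anju221*. These libraries overlapped, and the log2 difference was 0.28 (SE 0.31), within its counting error. It was 6.19, 5.10 and 6.11 CPM in the *srebf1* and 7.59, 9.28 and 8.21 CPM in the *srebf2* double mutant, both above every library of *sec31anju221*, with log2 differences of 1.21 (SE 0.22) and 1.73 (SE 0.22). The *xbp1* double mutant had 0.648 CPM, the *atf6* double mutant 1.39 CPM and the libraries labelled *atf4a/b* 0.916 CPM. A further identifier that the name table gives as SURF4, and which was looked at after its values were seen, had 10.4 CPM in WT, 7.76 CPM in *sec31anju221*, 105 CPM in the *srebf1*, 49.9 CPM in the *srebf2* and 1.098 to 2.07 CPM in the other double mutants. Whether it is the same gene, a paralog or part of an overlapping locus could not be settled from the tables used here, and *surf4* is uncertain for this reason, but both identifiers were highest in the *srebf1* and *srebf2* double mutants.

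The double mutants were then each compared with *sec31anju221*, to ask which transcription factor's loss goes with a different level of the cargo receptors. These 5 comparisons share the *sec31anju221* libraries, so their values are given side by side and not counted as separate evidence. In the *xbp1* double mutant 10 of 10 genes were lower by more than 2-fold, where 19.7% of all genes tested and 65.3% of the abundant genes were lower. The median log2 difference of the 10 genes was -3.20, from -4.29 for *lman1* to -1.88 for *surf4*. Most abundant genes were thus lower here under TMM over all genes. With factors taken from the abundant genes only, which raise the log2 differences in this comparison by a median of 1.31 over all genes, 7 of 10 cargo receptor genes were lower, with a median of -1.87, beside 12.3% of the abundant genes. The genes that were then short of 2-fold were *tmed5*, *surf4* and *lman2*, at -0.65, -0.58 and -0.56. As a rank, which scaling hardly changes once the set of genes is fixed, the median cargo receptor gene lay at the 3.99th percentile of the abundant genes, and *lman1* at the 0.915th. The set of abundant genes itself was chosen from TMM-scaled levels. Of the 10 genes, *tmed3*, *tmed4* and *surf4* average under 10 CPM, so they are ranked against a set to which they do not belong. The counts of the 10 genes likewise stand beside shares of a set without these genes, here and in the comparisons below. With factors from the abundant genes, 20345 of all 30685 genes tested were past 2-fold in either direction. Shares of all genes by direction were not computed with these factors.

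In the *atf6* double mutant 9 of 10 genes were lower, where 22.6% of all genes tested and 71.0% of the abundant genes were, and the exception was *surf4* at -0.82. The median difference was -2.59. With factors from the abundant genes, which shift this comparison by a median of 1.59 over all genes, 5 of 10 were lower (*tmed9*, *mcfd2*, *tmed5*, *tmed2* and *tmed3*) beside 19.8% of the abundant genes, the median was -0.97 and *surf4* turned to 0.78. The median percentile of 20.5 was higher than in the *xbp1* double mutant. Between these double mutants the percentiles of *lman1* were 0.915 and 25.7 and those of *tmed10* 2.50 and 21.3.

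In the libraries labelled *atf4a/b* 10 of 10 genes were lower, where 21.4% of all genes tested and 61.7% of the abundant genes were. The median was -3.74, and *mcfd2* and *tmed4* had the lowest values, -4.47 and -4.42. With factors from the abundant genes, which shift this comparison by a median of 1.36 over all genes, 8 of 10 were lower beside 23.4% of the abundant genes, with a median of -2.36. The exceptions were *surf4* at -0.05 and *lman2*, whose direction turned to 0.07. The median percentile was 7.10, and those of *lman2* and *surf4* were 50.9 and 48.4.

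**Figure D2:**
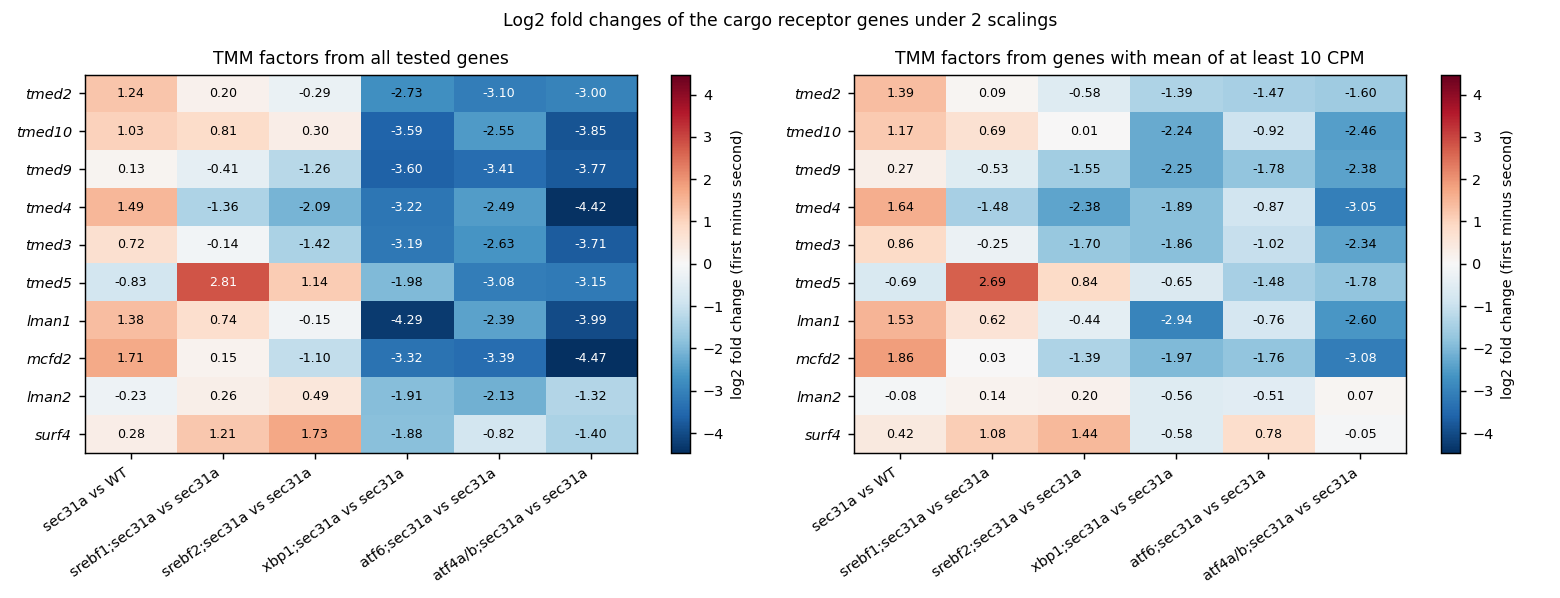
Log2 fold changes (first genotype minus second) of the 10 cargo receptor genes in 6 comparisons, on the left scaled by TMM over all genes tested and on the right by TMM over the abundant genes (averaging 10 CPM or more); sec31a stands for sec31anju221. The choice of factors moves the last 3 columns most, by a median over all genes of 1.31 to 1.59, so that *surf4* comes to 0.78 in the *atf6* column and *lman2* to 0.07 in the *atf4a/b* column while *tmed9*, *mcfd2* and *tmed2* stay below -1.

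In the *srebf1* double mutant the differences from *sec31anju221* went in both directions. Higher by more than 2-fold were 2 of 10, *tmed5* and *surf4*, where 14.7% of all genes tested and 15.7% of the abundant genes were higher. Lower was 1 of 10, *tmed4* at -1.36 (SE 0.11), where 18.7% of all genes and 12.7% of the abundant genes were lower. Short of 2-fold but past 1.5-fold were *tmed10* and *lman1*, at 0.81 and 0.74. The median difference was 0.23 and the median percentile 56.7. Without a scaling factor the cargo receptors took 2544 CPM together, against 2413 CPM in *sec31anju221*.

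In the *srebf2* double mutant 2 of 10 were higher (*surf4* and *tmed5*), where 15.3% of all genes tested and 25.3% of the abundant genes were, and 4 of 10 were lower, where 29.5% of all genes and 15.6% of the abundant genes were. The genes called lower were *tmed4* at -2.09, *tmed3* at -1.42, *tmed9* at -1.26 and *mcfd2* at -1.10, of which *tmed9* and *mcfd2* came to -0.99 and -0.83 with RLE size factors. The genes higher in this double mutant were among those higher in the *srebf1* double mutant, and *tmed4* was lower in both, in comparisons that share the *sec31anju221* libraries. Without a scaling factor the cargo receptors together took 1014 CPM, nearer to the 741 CPM of WT than to *sec31anju221*. This sum was 696 CPM in the *xbp1* double mutant, 809 CPM in the *atf6* double mutant and 359 CPM in the libraries labelled *atf4a/b*. How the sum of the *atf6* double mutant stands against WT therefore rests on the scaling, since with TMM it was 365 CPM against 1607 CPM. In the *xbp1* double mutant the sum was below WT also with TMM, at 317 CPM. With factors from the abundant genes it was 553 CPM there against 996 CPM in WT. Single genes of the *xbp1* double mutant could still change side. For *mcfd2* the *xbp1* double mutant had 163 CPM against 497 CPM in WT with TMM, 284 CPM against 308 CPM with factors from the abundant genes and 358 CPM against 229 CPM without a factor. In the libraries labelled *atf4a/b* it was lower than in WT by all of these, at 73.3, 132 and 121 CPM.

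**Figure D3:**
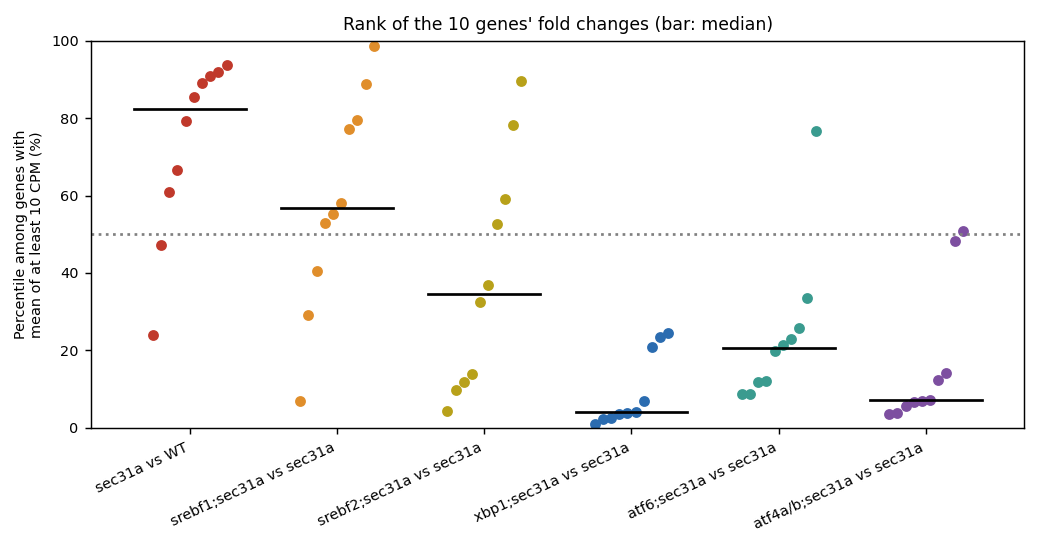
Percentile (%) of each cargo receptor gene's log2 fold change among the 5245 abundant genes, in 6 comparisons; points are the 10 genes, bars their median and the dotted line the middle. The median is 82.4 in sec31anju221 (written sec31a) against WT, 56.7 and 34.7 in the *srebf1* and *srebf2* double mutants, and 3.99 and 20.5 in those of *xbp1* and *atf6* and 7.10 in the libraries labelled *atf4a/b*, each against sec31anju221.

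The make-up of the cargo receptor reads gave a view of the genes against each other. In WT *tmed9* gave 42.3% of these reads and *mcfd2* 30.9%. Since reads also depend on gene length, each share is compared across genotypes only. In *sec31anju221* the share of *mcfd2* was 50.5% and that of *tmed9* 23.0%. Over the 5 other mutant genotypes *mcfd2* gave 33.8% to 51.4%, above its share in WT, and *tmed9* 15.1% to 24.99%, below its share in WT. The share of *tmed10* was 9.28% in WT and highest in the *srebf2* double mutant, at 19.3%. The share of *lman2* was 1.66% in *sec31anju221* and 9.87% in the libraries labelled *atf4a/b*. The share of *lman1* was lowest in the *xbp1* double mutant, 3.31%, and highest in the *atf6* double mutant, 10.8%, both beyond the range of the other genotypes' libraries.

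**Figure D4:**
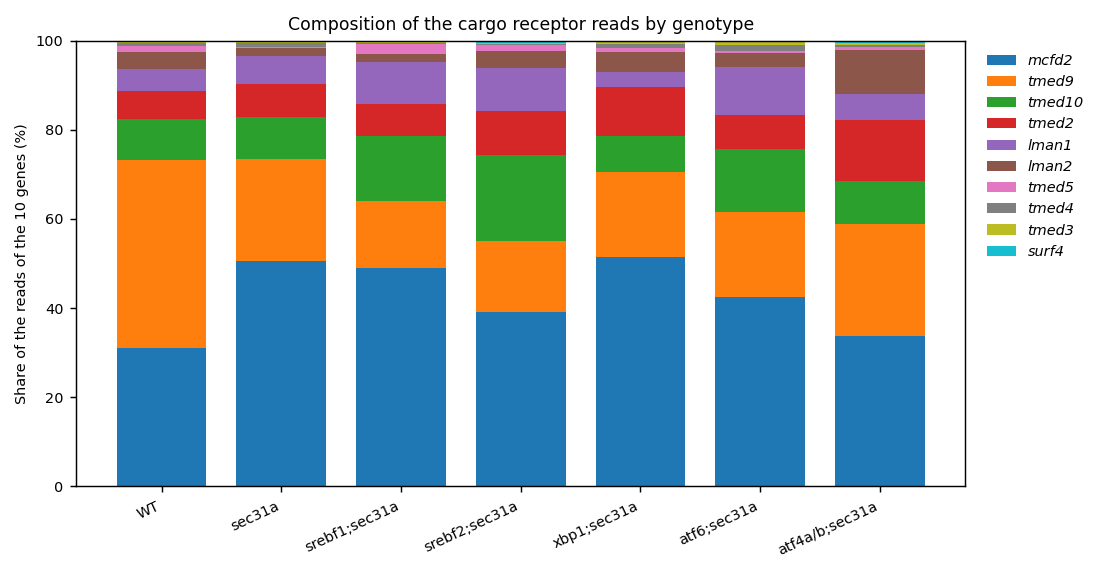
Share of the reads of the 10 cargo receptor genes that each gene contributed (%), in the summed libraries of each genotype, with sec31a standing for sec31anju221. The *tmed9* band shrinks from 42.3% in WT to 23.0% in sec31anju221 while the *mcfd2* band widens from 30.9% to 50.5%.

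The 10 genes did not form a uniform group. Over the 7 genotypes, with factors from the abundant genes, the log2 levels of *tmed10* and *lman1* had a correlation of 0.98 and those of *tmed2* and *mcfd2* of 0.94. That of *lman2* with *tmed4* was -0.25 and that of *surf4* with *tmed4* -0.03. These values describe 7 points that share 1 scaling and stand for no test. The distance of each gene from the group's median pattern, the root mean square of the log2 differences over the 7 genotypes, was 0.305 for *tmed2*, 0.330 for *mcfd2* and 0.397 for *tmed3*, and 0.990 for *tmed5*, the farthest. Over all other abundant genes the median distance was 0.989, so *tmed5* lay no nearer to the cargo receptor pattern than a typical gene did. The genes outside the group with the pattern most like it were SEC63, a translocon component, at a distance of 0.126, RAB18, a small GTPase, at 0.201, SPCS1, a signal peptidase subunit, at 0.207, GMPPA, which regulates the supply of mannose for glycosylation, at 0.210, and ALG11, a mannosyltransferase, at 0.230.

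Genes with which cargo receptors work were set beside them, from lists written with earlier results of these data known. Of 16 other p24, lectin and export receptor genes, 5 were higher and 2 lower in *sec31anju221* than in WT, with a median log2 difference of 0.60. Those called lower included *tmed6*, which had very few reads. Against *sec31anju221*, the median of these 16 genes was -1.40 in the *xbp1* and -1.27 in the *atf6* double mutant. It was -1.23 in the libraries labelled *atf4a/b*. With factors from the abundant genes these medians were -0.10, 0.33 and 0.11, where the 10 cargo receptor genes had -1.87, -0.97 and -2.36. The lower level of the 10 genes was thus not shared by these other receptors as a list. The gene *ergic1*, which encodes a membrane protein cycling between ER and Golgi, had 6.84 CPM in WT, 40.4 CPM in *sec31anju221* and 309 CPM in the *srebf1* double mutant, while *bcap31* and *mia3*, a receptor for large cargo, differed from WT by 0.81 and 0.12. The KDEL receptor gene *kdelr2a*, whose product returns escaped ER proteins, went from 62.7 to 241 CPM. An identifier named LMAN2L, a relative of *lman2* singled out after its values were seen, went from 254 to 897 CPM. Unlike *lman2*, it was thus higher by more than 2-fold.

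Coat genes took part unevenly. Of 14 COPII genes, including *sec31a* itself, 5 were higher and 1 lower in *sec31anju221*, with a median of 0.78, close to the 0.87 of the cargo receptors. The GTPase gene *sar1b* was at 2.20 and the assembly factor gene *tfg* at 3.56 above WT, while *sec23b* and *sar1ab* differed by 0.10 and -0.06. Of 11 COPI genes, for the coat that returns receptors to the ER, 8 were higher and 0 lower, with a median of 1.90. Among them were *cope*, from 553 to 2059 CPM, and *copz1*, from 641 to 2281 CPM. By their medians the COPI genes thus lay above the cargo receptors and the COPII genes beside them.

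The translocon and signal sequence genes, through which cargo enters the ER, had 9 of 15 identifiers higher and 0 lower in *sec31anju221*, with a median of 1.49, and in the *xbp1* double mutant 15 of 15 were lower than in *sec31anju221*, or 14 of 15 with factors from the abundant genes. Of 19 genes for ER chaperones and folding, 9 were higher and 0 lower in *sec31anju221*. In the *xbp1* double mutant their median was -1.72, and -0.38 with factors from the abundant genes, against -3.20 and -1.87 for the cargo receptors. There 13 of the 19 were lower and 1 was higher than in *sec31anju221*, or 5 lower and 5 higher with factors from the abundant genes. The 1 higher with TMM was the chaperone gene *hsp90b1*, at 125 CPM against 58.3 CPM in *sec31anju221*. In the libraries labelled *atf4a/b* the chaperone median was -3.41 and in the *atf6* double mutant -2.40, beside -3.74 and -2.59 for the cargo receptors.

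**Figure D5:**
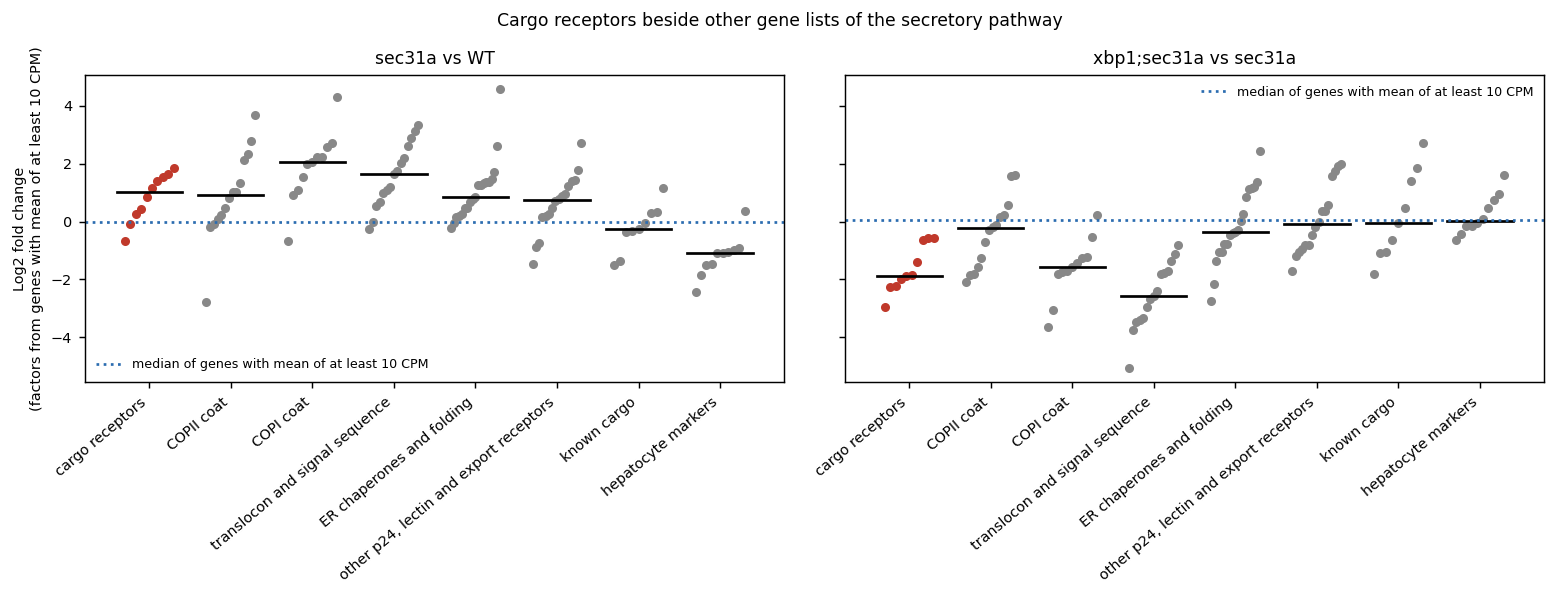
Log2 fold changes, scaled by TMM over the abundant genes (averaging 10 CPM or more), of the 10 cargo receptor genes (red) and of 7 other gene lists (grey), in sec31anju221 against WT and in the *xbp1* double mutant against sec31anju221; bars are medians, and the dotted line is the median of the abundant genes. On the left the medians lie above the line for all lists but known cargo and hepatocyte markers. On the right the cargo receptors, at a median of -1.87, lie between the translocon genes at -2.56 and the COPI genes at -1.59. The chaperones lie higher, at -0.38, as do the other p24, lectin and export receptors, at -0.10.

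Genes for known cargo showed no such higher median. Of 9 cargo genes, 1 was higher and 2 were lower in *sec31anju221*, with a median of -0.40. The gene called higher was *ctsc*, at 5.21 CPM in WT and 10.5 CPM in *sec31anju221*, just past the 2-fold limit. The factor V gene *f5*, whose product Lman1 and Mcfd2 carry in humans, was at 889 CPM in WT and 675 CPM in *sec31anju221*, a log2 difference of -0.40 where *lman1* and *mcfd2* were at 1.38 and 1.71. The apolipoprotein B gene *apobb.1*, for the cargo that SURF4 carries in mammals, was at 6433 and 7053 CPM, while *apobb.2*, named beside it after its values were seen, went from 246 to 85.9 CPM, a log2 difference of -1.52 that was called lower. Alpha-1 antitrypsin genes *serpina1* and *serpina1l* were at -0.47 and -1.66. The hepatocyte markers, most of them for secreted proteins too, had 9 of 10 genes lower in *sec31anju221*, with a median of -1.24, or 7 of 10 with factors from the abundant genes.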

How the data were processed

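Low-input RNA-seq was carried out by the authors on 21 liver libraries at 7 dpf. Per the submitters' processing notes and the study's methods, read pairs were mapped to GRCz11 with HISAT2 2.1.0 and counted on Ensembl genes with featureCounts 1.6.0. As deposited, each library has a table of raw read counts by Ensembl identifier that are not normalized. The Ensembl release, the strand setting and the handling of reads that map to several places are not given in the sources used here, so overlapping or duplicated genes are uncertain. All libraries could be assigned to a genotype from their labels.

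The members and gene lists were chosen with earlier results of these data known. Symbols were matched through a name table, in which 29201 of 32520 identifiers had a symbol, and the other gene lists matched in part. Genes whose normalized counts summed to 10 or more over the libraries were tested. The 3 libraries of a genotype were summed, and TMM factors and log2 CPM with a prior count of 2 were computed in R 4.3.3 with edgeR 4.0.16 and limma 3.58.1. A gene was called past a 2-fold difference. For genes at 2000 to 10000 counts the variance was estimated at 1.86 to 2.24 times the mean, while samples that vary by 10% would show 36.5 to 38.9 times. These estimates of the ratio are its median over genes divided by the natural log of 2, which allows for variances taken from 3 libraries. At these depths of 9608400 to 23095746 counts the precision is that of sampling, and the coefficient of variation of the cargo receptors between libraries had a median of 3.34% and reached 54.8%. The calculation was tested on simulated data, with equal numbers of genes raised and lowered in *sec31anju221* only. That test does not bear on the choice of scaling factors. Only the 10 cargo receptors, the disrupted genes, the most abundant and most changed genes of each list and the 5 genes of most similar pattern are named, with exceptions stated. Not every gene that this rule picks from the lists is named. The gene *f5*, for cargo of Lman1 and Mcfd2 in humans, and the p24 identifiers set beside *tmed5* are named outside it. Alternatives were RLE size factors, TMM over the genes averaging 10 CPM or more, other filters, thresholds and prior counts, each library left out, edgeR's quasi-likelihood test with and without the replicate number as a block, and DESeq2 1.42.0. Omitting the scaling factor was added after seeing the data. Gene sequences and coordinates were not used here.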

Additional observations from a re-analysis of the deposited data

How the results depend on the processing

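Counts of cargo receptor genes past 2-fold were recomputed for the 6 comparisons under each alternative. With prior count 0.5 or no filter on low counts every count was within 1.5 times its value, as were all leave-one-out counts, in which the genes higher in *sec31anju221* numbered 4 to 5, *tmed10* falling short without replicate 1 or replicate 3 of *sec31anju221*. With RLE size factors 2 genes were lower in the *srebf2* double mutant. With TMM over the abundant genes, and also without a scaling factor, 5 were lower in the *atf6* and 1 higher in the *srebf2* double mutant. With the former, 19.8% of the abundant genes were lower in the *atf6* and 18.2% higher in the *srebf2* double mutant. With it *lman2* in the libraries labelled *atf4a/b* turned to 0.0727 on the log2 scale. At a 1.5-fold limit 1 gene was lower in *sec31anju221* and 4 were higher in the *srebf1* double mutant. Of all 30685 genes tested, 16302 and 17100 were past this limit in either direction in these comparisons. Shares by direction were not computed at this limit, with RLE size factors, without a scaling factor or with a library left out. With the abundant genes only, to which 7 of the 10 belong, 1 was higher and 0 lower in the *srebf1* and 1 higher and 2 lower in the *srebf2* double mutant. Of all abundant genes, 15.7% were higher and 12.7% lower in the *srebf1* and 25.3% higher and 15.6% lower in the *srebf2* double mutant. Against the genes averaging 1 CPM or more, the median percentiles were 2.74 (*atf4a/b*), 1.59 (*xbp1*), 7.97 (*atf6*), 64.3 (*srebf1*) and 49.4 (*srebf2*).

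Over all genes, the number called moved more. The order here is *sec31anju221* against WT, then the libraries labelled *atf4a/b*, then the *xbp1*, *atf6*, *srebf1* and *srebf2* double mutants. A 1.5-fold limit gave 16302, 17843, 16455, 18284 and 17100 genes in the first 5. The abundant genes alone gave 1802, 3388, 3475, 3815, 1488 and 2148. For *atf4a/b*, *xbp1* and *atf6* the factors from those genes gave 21537, 20345 and 22457 and no scaling factor gave 20058, 21762 and 22243. DESeq2 over the 21 libraries called 4510, 6754, 5636, 7273, 4842 and 6546, and edgeR's quasi-likelihood test called 4742, 7069 and 5983 in the first 3 and 5237 and 7479 in the last 2. Leaving out each library in turn gave 9657 to 10437, 11016 to 11445, 9527 to 9946, 11447 to 11929, 10346 to 10661 and 13631 to 14522.

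Libraries with the same replicate number did not deviate together (mean correlation -0.00298 over 63 pairs, -0.0887 to 0.0693), so the numbers do not pair them. With the replicate block, edgeR called 4717, 7005, 5940, 7493, 5183 and 7425 genes, and the counts of cargo receptor genes kept within 1.5 times theirs, as they did with edgeR without the block and with DESeq2. These tests take the libraries of a genotype as replicates. Depth limits *surf4*, *tmed3*, *tmed4* and *tmed5*, whose lowest sums in a genotype were 46, 56, 71 and 76 counts.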
